A study of Mus musculus with 6 samples.

Results

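The core autophagy machinery was described here as 38 genes that encode the proteins which build an autophagosome and bring it to the lysosome. They were chosen by symbol, from the known function of their proteins, and all 38 were found among the 35427 genes of the table used here. Bone marrow-derived macrophages (BMDMs), grown with M-CSF from femur marrow of C57BL/6 mice, were sequenced as 3 Ctrl libraries without treatment and 3 ZA libraries taken 12 h after zoledronic acid (ZA, a nitrogen-containing bisphosphonate given against bone resorption). The study first used these libraries to describe how ZA affects macrophages, and reported changes in inflammatory and mitochondrial genes. It later used them to look for the signals behind its observation that ZA disturbed the removal of mitochondria by autophagy. The ZA concentration for these libraries was not given in the sources used here, and nothing states that the 3 libraries of a group came from separate animals or cultures, so that p-values measure the spread between these libraries.

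Macroautophagy starts when the ULK1 kinase complex, which mTORC1 holds in check in fed cells, activates a class III phosphatidylinositol 3-kinase complex on the membrane from which the autophagosome grows. WIPI proteins, lipid transfer by ATG2 and the scramblase ATG9 enlarge this membrane, and 2 ubiquitin-like conjugation systems attach proteins of the LC3 and GABARAP families to its lipids. The closed vesicle is fused with the lysosome by STX17 and its partners, and TFEB and TFE3 are transcription factors that switch on autophagy and lysosomal genes when mTORC1 is low. Much of this pathway is controlled on proteins, by phosphorylation and lipidation, which messenger RNA levels do not show.

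TFEB and TFE3 bind the letters CACGTG, which read the same on both strands, with the most favoured form GTCACGTGAC. Since both factors are among the 38 genes, the windows from 250 bases before to 50 bases after the start of each gene (RefSeq, GRCm38.p6) were searched for these letters. A window was given for 31 of the 38 genes, and 4 of them (12.9%) held CACGTG, namely Atg3, Atg5, Atg7 and Atg14, where 8.09% of 27025 genes held it. The longer GTCACGTGAC, which contains the shorter letters, was in 0 of the 31 windows and in 0.37% of all windows. A match is a description of these letters and not a binding site shown by data. The 80 bases around the matches of Atg3 (chr16:45158709-45158788), Atg5 (chr10:44268259-44268338) and Atg7 (chr6:114670927-114671006), all on the plus strand and upstream of the start, are shown because these are conjugation enzymes whose values follow, with CACGTG in capitals.
Atg3: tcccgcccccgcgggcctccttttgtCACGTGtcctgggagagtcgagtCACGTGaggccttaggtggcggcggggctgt
Atg5: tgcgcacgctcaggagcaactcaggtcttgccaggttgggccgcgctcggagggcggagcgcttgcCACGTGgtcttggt
Atg7: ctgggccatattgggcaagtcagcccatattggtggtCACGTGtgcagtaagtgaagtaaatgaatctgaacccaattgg
Atg3 held the letters at 94 and 71 bases before its start, Atg5 at 14 bases and Atg7 at 132 bases.

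The deposited values were FPKM, fragments scaled by the length of the gene and the total of the library. A level set beside that of another gene thus depends on the lengths used, whose annotation was not given. The length recovered from the values was 15890 bases for Pik3c3 and 1817 bases for Wipi1. Their GENCODE transcripts hold 4465 and 4214 different stretches of 150 bases. Orders and ratios between genes below are therefore those of FPKM and can differ from those of transcript numbers. Library totals lay between 41230600 and 42155808 fragments, and a member had between 247 and 18786 fragments in a library, with a median of 2076. All 38 genes passed the filter of a mean FPKM of at least 1, with 9800 genes tested. The macrophage markers Lyz2 (20472 to 24669 FPKM), Cd68 (1318 to 1351 FPKM) and Csf1r (767.3 to 848.0 FPKM) were high in each library. The T cell, dendritic cell and B cell lists summed to at most 3.01 FPKM in a library. The summed FPKM of 12 neutrophil and progenitor markers was 34.2 to 48.0 in Ctrl and 30.2 to 35.5 in ZA, with Ly6g at 0 in every library, and that of 8 macrophage markers was 23609 to 27519 in Ctrl and 24497 to 28005 in ZA. Of these lists, Csf1r, Adgre1 and Cd14 were higher, and Prtn3, Mpo and Elane lower, in ZA at an unadjusted p under 0.05, the osteoclast marker Acp5 and the stromal marker Dcn were also lower, and of the 21 markers tested 0 passed after adjustment in limma and 2, Adgre1 (adjusted p = 0.0114) and Csf1r (adjusted p = 0.00878), did with voom. Without the ZA 1 library Mpo passed after adjustment in limma. With the replicate number as a block in limma, 15.4% of all genes were at an unadjusted p under 0.05 (905 higher and 600 lower in ZA). Of the 8 macrophage markers 4 were higher at that p. Of the tested markers 4 of 6 for neutrophils and progenitors, 1 of 2 for osteoclasts and all 3 stromal ones were lower. The stromal genes were Col1a1 (0.0256), Col1a2 (0.00346) and Dcn (0.00156), and with that block 0 of the 21 markers passed after adjustment. The part of this shift in the values below was not tested, and in bulk RNA fewer cells of a type and less RNA per cell cannot be told apart.

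Expression of the autophagy machinery in ZA macrophages lay within a few percent of that in Ctrl macrophages at nearly every gene. None of the 38 genes passed an adjusted p of 0.05 in limma on log2(FPKM + 1) with Benjamini-Hochberg adjustment over all genes, where 36 of 9800 genes (0.367%) did, and none passed with voom on the recovered fragments, where 1.35% of all genes did. At an unadjusted p under 0.05 there were 2 members, Atg2a with the higher value in ZA and Gabarapl1 with the lower one, beside 12.3% of all genes tested (7.5% higher and 4.85% lower). With voom there were 3, these 2 and Ulk2, beside 13.4% of all genes. For 11 members the libraries of both groups were fully apart, 7 higher and 4 lower in ZA, beside 18.1% of all genes tested (11.4% higher and 6.76% lower). The mean was higher in ZA for 23 members (60.5%) and lower for 15, beside 56.9% of all genes tested with a higher mean. This split came to 20 and 18 after centring each library on its own median, or 52.6% higher beside 48.4% of all genes. The median log2 fold change over the members was 0.021 and that over all genes 0.010. The 11 genes whose groups stood apart had mean FPKM changes between -6.14% (Atg4c) and 7.62% (Atg2a). Leaving out 1 library in turn left between 0 and 3 members (0% to 7.89%) at an unadjusted p under 0.05, beside 9.72% to 14.3% of all genes. Without the filter there were 6 members at that p, or 15.8% of the 38 beside 8.8% of 19373 genes, while with the filter the 2 members are 5.26% beside 12.3%.

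The differences between these libraries were small. Each interval below is for 1 gene and rests on the spread between these libraries, with the variance of the gene moderated by limma over all genes tested. Mean FPKM in ZA differed from that in Ctrl by between -6.14% (Atg4c) and 8.06% (Atg10), and by under 5% for 31 of the 38 members. The 95% confidence interval of each of the 38 log2 fold changes lay within 1.2-fold in either direction, which is 0.263 on the log2 scale, as did 89.4% of those of all genes tested. For 22 members the interval also lay within 1.1-fold, as it did for 46.3% of all genes tested. On the FPKM + 1 scale the change of low genes is understated, and with voom 37 of the 38 intervals lay within 1.2-fold, the exception being Atg10 with -0.11 to 0.33. The coefficient of variation between libraries of a group had a median of 2.48% over the members and 3.64% over all genes tested, and counting error alone would give a median of 2.21% for the members.

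**Figure D1:**
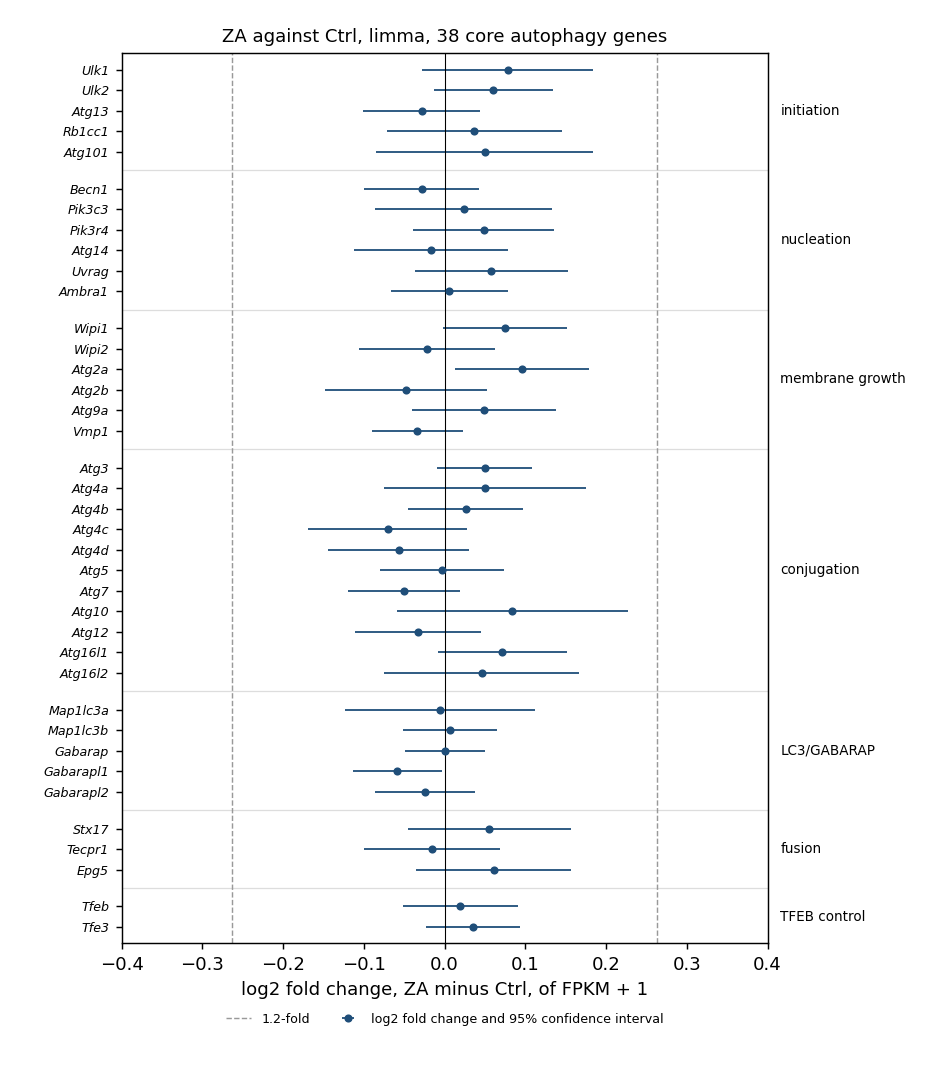
Log2 fold change of each of the 38 genes, ZA minus Ctrl on the log2(FPKM + 1) scale, as a point with its 95% confidence interval from limma (3 libraries per group), with genes ordered by step and dashed lines at 1.2-fold. Every interval lies between the dashed lines, and those of Atg2a and Gabarapl1 are the 2 that do not include 0.

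**Figure D2:**
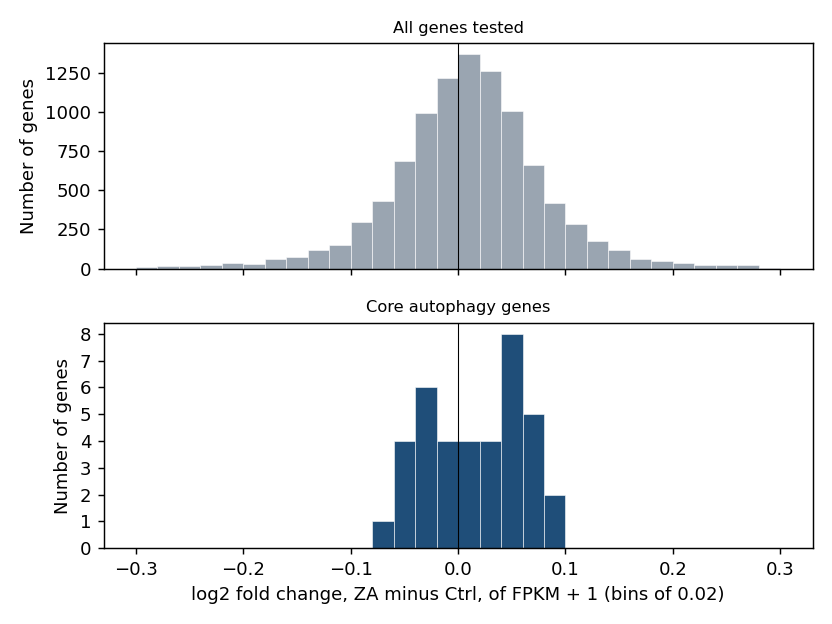
Number of genes (vertical axis) by log2 fold change, ZA minus Ctrl of FPKM + 1, in bins of 0.02, for the 9800 genes tested above and the 38 autophagy genes below. The 38 genes lie between -0.07 and 0.10, within the bulk of all genes, of which 103 fall outside the plotted range.

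The initiation complex holds the kinases ULK1 and ULK2, the scaffold RB1CC1 (also called FIP200), ATG13 and ATG101. Ulk1 had 10.1, 10 and 9.87 FPKM in Ctrl and 11.4, 10 and 10.4 FPKM in ZA. Its ZA 1 library was the highest and its ZA 2 library was at the Ctrl level, so that the groups overlapped. On the log2 scale the difference of Ulk1 was 0.078 with a standard error (SE) of 0.046, and limma gave an adjusted p of 0.531. Ulk2 was at 7.5, 7.46 and 7.68 FPKM in Ctrl and 7.90, 7.85 and 7.98 FPKM in ZA, each ZA library above each Ctrl library by a small margin. For Ulk2 the log2 fold change was 0.060 (SE 0.032), with an unadjusted p of 0.0951 and an adjusted p of 0.484 in limma, and an unadjusted p of 0.0404 in voom. Atg13, which bridges the kinases and the scaffold, had 16.1 ± 0.482 FPKM in Ctrl and 15.8 ± 0.136 in ZA (SD, n = 3). Rb1cc1 had 5.69 ± 0.384 and 5.85 ± 0.0739, and Atg101, which stabilises ATG13, had 15.5 ± 1.29 and 16 ± 0.770. These 3 genes overlapped between groups. Of the 5 initiation genes 0 passed at an unadjusted p under 0.05 in limma, and 1, Ulk2, did with voom.

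The nucleation complex consists of the lipid kinase PIK3C3 (VPS34), its regulatory kinase PIK3R4, BECN1, and either ATG14, which directs it to autophagosome formation, or UVRAG, which directs it to endosomes and maturation. AMBRA1 links BECN1 to regulation by other kinases. Becn1 had 38.8, 39.9 and 41.2 FPKM in Ctrl and 39.8, 39.5 and 38.2 FPKM in ZA. The groups overlapped, and the log2 fold change of Becn1 was -0.028 (SE 0.031, limma adjusted p = 0.751). Of the 150-base stretches of Becn1 transcripts, 27% are also in transcripts of Cntd1, so that its count can hold fragments of that gene. Uvrag had the largest moderated statistic of this step, with 19.9, 19.5 and 19.5 FPKM in Ctrl and 19.2, 21.0 and 21.3 FPKM in ZA. Its ZA 1 library was the lowest of the 6 and the other two ZA libraries were the highest, and the log2 fold change was 0.058 (SE 0.041, limma adjusted p = 0.605). Without the ZA 1 library the unadjusted p of Uvrag fell under 0.05 with an adjusted p of 0.190, the lowest adjusted p that any member had over 14 alternatives, and 12.3% of its stretches are shared with an antisense transcript. Pik3c3 had 3.21 ± 0.0839 FPKM in Ctrl and 3.28 ± 0.190 in ZA, and Pik3r4 had 9.92 ± 0.326 and 10.3 ± 0.339 (SD, n = 3). Atg14 had 8.54 ± 0.465 and 8.42 ± 0.0856, and Ambra1 had 10.5 ± 0.189 and 10.6 ± 0.17. All 6 genes of the complex overlapped between groups, and 0 passed at an unadjusted p under 0.05 in limma or voom. Uvrag stood 2.31 ± 0.131 times as high as Atg14 in Ctrl and 2.44 ± 0.160 times in ZA, with overlapping libraries.

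Membrane growth held the member with the largest moderated statistic, Atg2a. ATG2A and ATG2B carry lipids from the endoplasmic reticulum into the growing membrane. Atg2a had 9.96, 9.51 and 9.39 FPKM in Ctrl and 10.5, 10 and 10.5 FPKM in ZA. The lowest ZA value stood just above the highest Ctrl value. The log2 fold change of Atg2a was 0.10 (SE 0.036, 95% confidence interval 0.013 to 0.18), with an unadjusted p of 0.0281 and an adjusted p of 0.341 from limma, and adjusted p-values between 0.224 and 0.558 over the alternatives. Atg2b had 3.44 ± 0.0611 FPKM in Ctrl and 3.29 ± 0.155 in ZA (SD, n = 3), and its libraries overlapped. Within a Ctrl library Atg2a stood 2.84, 2.80 and 2.76 times as high as Atg2b, and within a ZA library 3.04, 3.19 and 3.21 times, without overlap. This ratio and that of Wipi2 to Wipi1, with 1.68 ± 0.0627 in Ctrl against 1.56 ± 0.0666 in ZA, were the 2 without overlap among 9 ratios between genes of one family or complex. They were picked out after their values were seen, and an exact permutation test of 3 against 3 libraries cannot go below a p of 0.10.

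WIPI1 and WIPI2 read the phosphoinositide made by the nucleation complex, ATG9A brings the first membrane and spreads lipids between its leaflets, and VMP1 acts at the contact with the endoplasmic reticulum. Wipi1 had 6.80 ± 0.109 FPKM in Ctrl and 7.21 ± 0.0954 in ZA (SD, n = 3) without overlap, and an adjusted p of 0.413 from limma. Vmp1 had 27.4 ± 0.223 and 26.8 ± 0.214, also without overlap, and an adjusted p of 0.615 from limma. Wipi2, the WIPI protein that recruits ATG16L1, had 11.4 ± 0.243 and 11.2 ± 0.428, and Atg9a had 11 ± 0.556 and 11.5 ± 0.0238. Both overlapped between groups, and 26.4% of the stretches of Atg9a are shared with the transcript Gm29253.

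The conjugation enzymes form 2 linked systems. ATG7 activates both ATG12 and the LC3 and GABARAP proteins, ATG10 passes ATG12 to ATG5, ATG3 passes LC3 to phosphatidylethanolamine, ATG16L1 and ATG16L2 join the ATG12 to ATG5 conjugate, and the ATG4 proteases cut the LC3 precursors and take lipidated LC3 off again. Atg5 had 19.9, 20.5 and 19.3 FPKM in Ctrl and 19.7, 19.4 and 20.4 FPKM in ZA, with full overlap and a log2 fold change of -0.0027 (SE 0.033, limma adjusted p = 0.985). Its 95% confidence interval was -0.079 to 0.074, so that a change of more than 1.1-fold in either direction lay outside it. Atg7 had 22.8, 21.9 and 22.8 FPKM in Ctrl and 22.2, 21.3 and 21.7 FPKM in ZA. Its lowest Ctrl library lay inside the ZA range, and the log2 fold change was -0.050 (SE 0.030, limma adjusted p = 0.535).

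Atg16l1, which places the conjugation on the membrane, had the largest moderated statistic of the enzymes. It was at 8.65, 8.86 and 8.58 FPKM in Ctrl and 9.38, 9.31 and 8.89 FPKM in ZA. The ZA 3 library was close to the highest Ctrl library and the other two ZA libraries stood higher, without overlap. The log2 fold change of Atg16l1 was 0.072 (SE 0.035, limma unadjusted p = 0.0710 and adjusted p = 0.453). Atg3, with CACGTG at 2 places of its window, had 26.2 ± 0.375 FPKM in Ctrl and 27.1 ± 0.245 in ZA (SD, n = 3) without overlap, and an adjusted p of 0.477 from limma. Atg12 had 30.3 ± 0.768 and 29.6 ± 1.06, Atg10 had 2.90 ± 0.231 and 3.14 ± 0.238, and Atg16l2 had 2.01 ± 0.156 and 2.11 ± 0.0410, each with overlap. With 247 to 310 fragments per library, Atg10 had the fewest reads of the 38 genes and its interval was the widest.

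The 4 proteases did not point one way. Atg4b, the protease with the broadest activity, was the highest of them with 11.1 ± 0.139 FPKM in Ctrl and 11.3 ± 0.230 in ZA (SD, n = 3). Atg4c had 3.58 ± 0.160 and 3.36 ± 0.0376, and Atg4d had 5.07 ± 0.117 and 4.84 ± 0.122, both lower in ZA without overlap and with adjusted p-values of 0.540 and 0.582 from limma. Atg4a had 5.36 ± 0.399 and 5.58 ± 0.238 with overlap, and 24.2% of its stretches are shared with the copy Atg4a-ps and with Syt6. Atg4d and Atg4a were close to each other in level, with Atg4d the higher in Ctrl 3 and Atg4a in the other libraries, while Atg4b stood above and Atg4c below both in every library. Of the 11 conjugation enzymes 0 passed at an unadjusted p under 0.05 in limma or voom.

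The LC3 and GABARAP proteins are the ubiquitin-like proteins that are attached to the membrane, bind cargo receptors and help it to close and fuse. LC3B, the product of Map1lc3b, is the usual marker of autophagosomes. Gabarap was by far the highest of the 38 genes, with 377.3, 374.2 and 375.1 FPKM in Ctrl and 367.7, 383.4 and 376.5 FPKM in ZA. Its ZA libraries lay on both sides of the Ctrl libraries, and the log2 fold change was 0.0010 (SE 0.022, limma adjusted p = 0.994). Gabarapl1 had 107.0, 107.2 and 106.2 FPKM in Ctrl and 102.2, 105.2 and 100.3 FPKM in ZA. Each ZA library was below each Ctrl library, and the log2 fold change of Gabarapl1 was -0.058 (SE 0.024, 95% confidence interval -0.11 to -0.0028). Its unadjusted p was 0.0418 and its adjusted p 0.384 from limma, with adjusted p-values between 0.289 and 0.625 over the alternatives, and 13.2% of its stretches are shared with the transcript 1700101I11Rik.

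Map1lc3b had 76.5, 74.6 and 78.4 FPKM in Ctrl and 77.7, 76.2 and 76.7 FPKM in ZA. The ZA libraries lay inside the Ctrl range, with a log2 fold change of 0.0069 (SE 0.025, limma adjusted p = 0.936). Gabarapl2 had 49.2, 47.2 and 47.1 FPKM in Ctrl and 47.6, 46.9 and 46.4 FPKM in ZA, with overlap and an adjusted p of 0.760 from limma. Map1lc3a had 22.8, 23.8 and 23.8 FPKM in Ctrl and 22.5, 25.5 and 22.2 FPKM in ZA. Its ZA 2 library was the highest and the other two ZA libraries the lowest, with an adjusted p of 0.981 from limma. The order Gabarap, Gabarapl1, Map1lc3b, Gabarapl2, Map1lc3a held in each of the 6 libraries without overlap of any neighbours. The summed level of the 5 genes was 630.1 ± 2.90 FPKM in Ctrl and 625.7 ± 10.2 FPKM in ZA (SD, n = 3). Gabarap made up 59.6% ± 0.099 of this sum in Ctrl and 60.1% ± 0.505 in ZA, and Map1lc3b 12.1% ± 0.268 and 12.3% ± 0.307. The share of Gabarapl1 was 16.9% ± 0.129 in Ctrl and 16.4% ± 0.237 in ZA, and its libraries did not overlap.

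**Figure D3:**
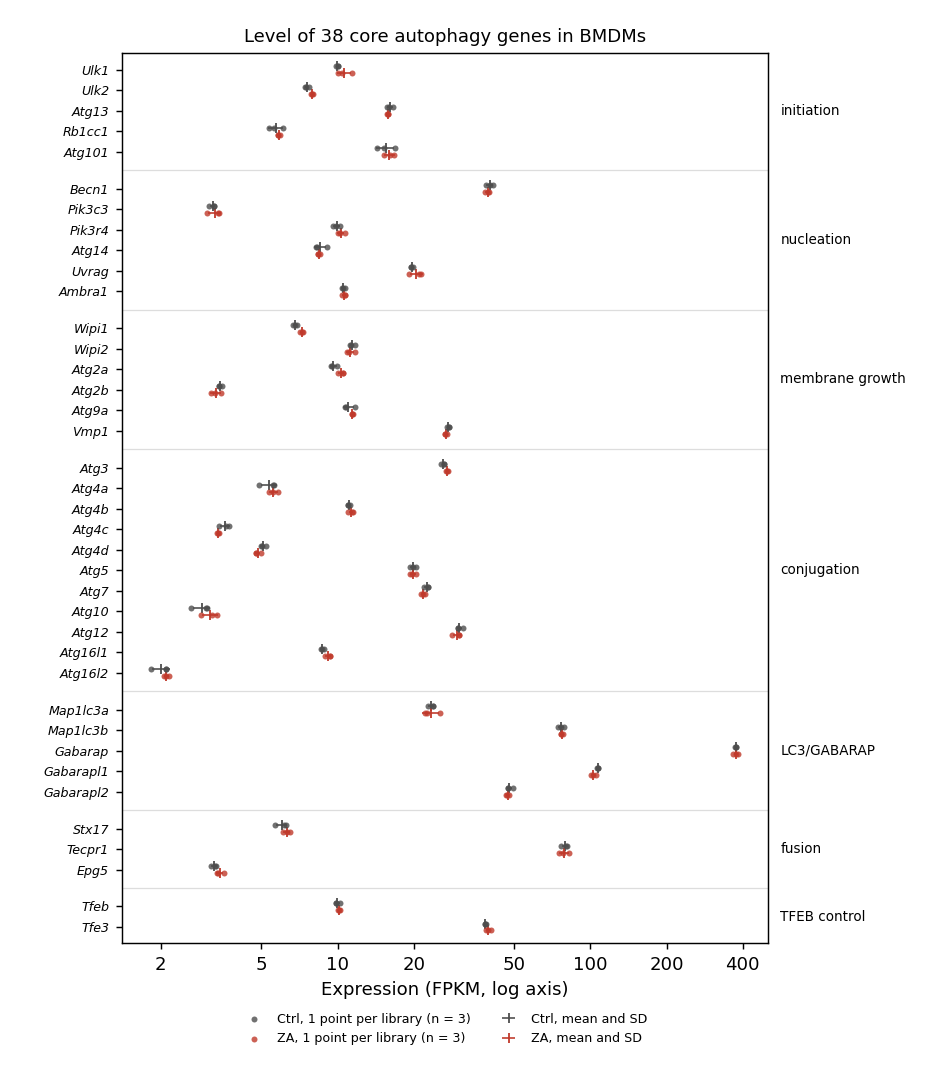
FPKM of the 38 genes on a log axis, 1 point per library for Ctrl (grey) and ZA (red), with the mean and SD of each group (n = 3) and genes ordered by step. Levels run from about 2 FPKM (Atg16l2) to a Ctrl mean of 375.5 FPKM (Gabarap), and in each gene the 2 groups lie almost on top of each other.

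Fusion with the lysosome is represented by Stx17, the SNARE of the closed autophagosome, and by the tethers Tecpr1 and Epg5. Epg5 had 3.27, 3.15 and 3.32 FPKM in Ctrl and 3.55, 3.38 and 3.35 FPKM in ZA. The groups did not overlap, by a margin smaller than the spread within either group, and the log2 fold change was 0.061 (SE 0.042, limma adjusted p = 0.594). Tecpr1 was among the higher members with 79.3 ± 2.20 FPKM in Ctrl and 78.4 ± 3.57 in ZA (SD, n = 3), about the level of Map1lc3b. Stx17 had 6.02 ± 0.298 and 6.30 ± 0.192. Of the 3 genes 0 passed at an unadjusted p under 0.05 in limma or voom.

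Of the transcription factors, Tfe3 had 38.4, 38.5 and 38.4 FPKM in Ctrl and 39.3, 38.7 and 40.3 FPKM in ZA. The 3 Ctrl libraries were nearly equal and each ZA library was above them, with a log2 fold change of 0.035 (SE 0.025, limma adjusted p = 0.612). Tfeb had 9.99 ± 0.199 FPKM in Ctrl and 10.1 ± 0.0808 in ZA (SD, n = 3), which overlapped, and an adjusted p of 0.840 from limma. Tfe3 was 3.85 ± 0.0687 times as high as Tfeb in Ctrl and 3.89 ± 0.109 times in ZA. Both factors are controlled mainly by their place in the cell, which these data do not measure.

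**Figure D4:**
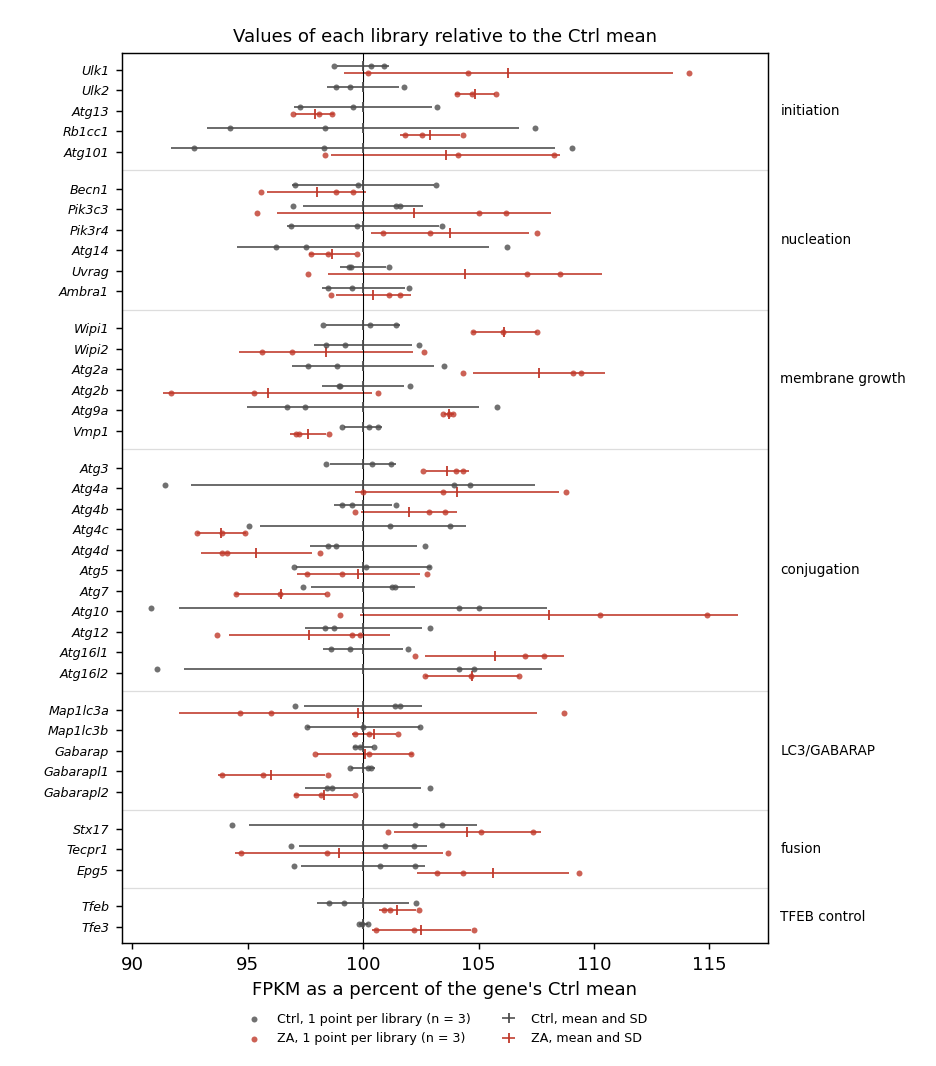
FPKM of each library as a percent of the gene's Ctrl mean, 1 point per library for Ctrl (grey) and ZA (red), with the mean and SD of each group (n = 3). Most points lie within 10% of the Ctrl mean, and the genes whose groups do not overlap (Ulk2, Wipi1, Atg2a, Atg3, Atg16l1, Epg5 and Tfe3 higher, Vmp1, Atg4c, Atg4d and Gabarapl1 lower in ZA) do so by small margins.

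The other genes of the pathway were taken from 57 further genes in 5 lists, of which 55 passed the filter. At an unadjusted p under 0.05 there were 1 higher and 5 lower in ZA, together 10.9% of the 55 beside 12.3% of all genes. After adjustment 0 passed in limma and 1, Psap, did with voom, where 1.35% of all genes did. Sqstm1, which encodes the cargo receptor p62, had 100.3, 99.2 and 99.4 FPKM in Ctrl and 101.3, 99.1 and 98.0 FPKM in ZA. The groups overlapped, and the log2 fold change of Sqstm1 was -0.0019 (SE 0.022, limma adjusted p = 0.984). Calcoco1, a receptor for autophagy of the endoplasmic reticulum, was the 1 gene of 10 cargo receptors at an unadjusted p under 0.05, with 16.2, 16.9 and 16.1 FPKM in Ctrl and 17.7, 17.7 and 17.9 FPKM in ZA. Its log2 fold change was 0.11 (SE 0.030, limma unadjusted p = 0.00673 and adjusted p = 0.207), with no overlap.

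The 5 lower genes all belonged to the 14 lysosomal genes that are known as TFEB targets, of which 0 were higher at that p, beside 4.85% lower and 7.5% higher of all genes tested. They were Psap, the precursor of the saposins, with 9826 ± 92.3 FPKM in Ctrl and 9307 ± 226 in ZA (SD, n = 3), and Ctsd and Ctsb, which encode cathepsins D and B. Ctsd had 10221 ± 78.1 and 9708 ± 336, and Ctsb had 4861 ± 28.3 and 4687 ± 41.6. Gla, alpha-galactosidase A, had 84.2 ± 1.37 and 79.9 ± 1.37, and Atp6v1h, a subunit of the proton pump that acidifies lysosomes, had 30.0 ± 0.360 and 28.2 ± 0.582. Of the 14 genes, these 5 were lower without overlap and 1, Lamp1, was higher, beside 6.76% and 11.4% of all genes tested. The 5 were picked by their p in the same libraries, so their lack of overlap is not separate support. Their log2 fold changes were between -0.087 (Atp6v1h) and -0.052 (Ctsb), with adjusted p-values between 0.232 and 0.321 from limma, and for Psap 0.0474 with voom. Quantile normalization gives genes of the same rank in every library the same value, which left no difference for Psap and Ctsd. With it Gla and Atp6v1h were under an unadjusted p of 0.05 and Ctsb was not. Without the filter, too, only Gla and Atp6v1h of the 5 were under it, and without the variance trend these and Psap. Over the 14 alternatives Gla and Atp6v1h were under it in 14, Psap in 12, and Ctsb and Ctsd in 8 each. Over the 14 genes the log2 fold change had a median of -0.017. The early regulators had 11 of 11 tested means higher in ZA, with a median of 0.042 and 0 at an unadjusted p under 0.05, and 56.9% of all genes tested had a higher mean in ZA. After the same centring, 10 of these 11 and 48.4% of all genes were higher. Of the 12 fusion genes and of the 8 tested genes for MiT factors and their Rag control, 0 passed at that p in the main limma fit. Of the fusion genes 1, Ykt6, was lower and 1, Snap29, higher in ZA without overlap. Ykt6 had an unadjusted p of 0.0505 in that fit and was under 0.05 in 4 of the 14 alternatives.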

How the data were processed

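RNA of BMDMs was sequenced in 6 libraries as paired-end reads of 150 bases. The labels name a VAHTS and also a SMARTER library kit and, in the submitters' processing notes, the build mm9, while the aligner, the counter, the annotation and whether counting used strand were not given in the sources used here. The authors deposited 1 FPKM value per gene and library. In 11 of 35434 rows all separators were present, and in the others the symbol and values ran together. Symbols and values were separated by how numbers are written and, for 9980 rows, by the reading that gave whole fragments for 1 gene length in every library. This restored 35427 rows, holding at least 99.710% of the fragments of each library, and 7 rows were left out. The 11 intact rows were restored identically. Fragment counts and library totals come from the same rule, and 3 fragments at the median length of 3263.0 bases are an FPKM of 0.0221.

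ZA was compared with Ctrl on the scale log2(FPKM + 1). The fit was made with limma 3.58.1 (R 4.3.3), two-sided and with a variance trend. A mean FPKM of 1 or more was asked of a gene, which left 9800, and Benjamini-Hochberg adjustment ran over all of these. The fit was tested on simulated data. The changes simulated were larger than those of the members, so power for changes as small as these was not tested. The 38 members and the other gene lists were chosen with earlier results of these data known, so that no test over a list is given. Values in every library are given for members with a p under 0.05 and for the LC3 and GABARAP genes. The member of each step with the largest moderated statistic is given in the same way. So are Ulk1, Becn1, Atg5 and Map1lc3b, whose proteins the study followed by western blot, and Atg7. Of the other autophagy genes, Sqstm1 and those with a p under 0.05 are named, as are Lamp1, Snap29 and Ykt6. Alternatives were a pseudocount of 0.1, no filter, a filter of 5, median centring, quantile normalization, no variance trend, the replicate number as a block, each library left out in turn, and voom on the recovered fragments. Libraries of one group, compared in pairs, were not duplicates of each other. Shared 150-base stretches were counted over the GENCODE vM21 transcripts on both strands, and Python 3.11.15, NumPy 2.4.6, pandas 2.3.3 and Matplotlib 3.10.9 were used.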

Additional observations from a re-analysis of the deposited data

How the results depend on the processing

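Of the members tested 0 had an adjusted p under 0.05 in each of the 14 alternatives, with limma or with voom on fragments, and 29 of 38 kept their direction in those that tested them. The filter of 5 left out 7 of the 38. Members with an unadjusted p under 0.05 numbered 2, and 6 without a filter on low values (Ulk2, Wipi1, Atg2a, Atg3, Atg16l1 and Gabarapl1), where 8.8% of 19373 genes were at that p, against 12.3% of 9800 with the filter. Leaving out 1 library gave between 0 and 3, beside 9.72% to 14.3% of all genes. Both Atg2a and Gabarapl1 passed that p without ZA 2, and neither did without Ctrl 2, Ctrl 3, ZA 1 or ZA 3. Without Ctrl 1 Atg2a passed and Gabarapl1 did not. Other autophagy genes at that p numbered 4 to 8 (7.27% to 14.5%) when 1 library was left out, beside the same 9.72% to 14.3% of all genes. The median log2 fold change of the members was 0.0092 after median centring, 0.0058 after quantile normalization and between 0.0084 and 0.021 without 1 library.

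Signs turned for 9 members and Sqstm1, and the cause was not tested. After centring these were Ambra1 (-0.0064), Map1lc3b (-0.0054) and Gabarap (-0.011), and after quantile normalization Ambra1 (-0.0081), Gabarap (-0.035) and Sqstm1 (0.016). Without 1 library the log2 fold change ranged from -0.00038 to 0.11 for Atg101, -0.041 to 0.023 for Atg14, -0.0041 to 0.019 for Ambra1, -0.0032 to 0.079 for Atg4a, -0.023 to 0.017 for Atg5, -0.066 to 0.03 for Map1lc3a, -0.01 to 0.024 for Map1lc3b, -0.013 to 0.017 for Gabarap, -0.049 to 0.015 for Tecpr1 and -0.015 to 0.0086 for Sqstm1.

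Across genes, same-numbered libraries deviated together with correlations of 0.284, 0.0393 and 0.280 for numbers 1, 2 and 3. The highest correlations with a library of another number in the other group were -0.0038, 0.033 and 0.033. Libraries numbered 1 and 3 thus shared deviations between the groups, while those numbered 2 hardly did. The labels give only replicate numbers, and genes are not independent replicates. In the main fit the numbers were not taken as pairs. With the replicate block 78 of all genes passed after adjustment in place of 36, and 0 of the 38 members did. Depth limits the low members most: for Atg10 counting error alone is 5.94%.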
